A study of Homo sapiens with 16 samples.

Results

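The comparison of 36 h with 18 h after doxycycline took 6 of the 16 arrays of the series, chosen by the time point in their titles: 3 arrays at 36 h and 3 arrays at 18 h. The cells were A673, an established Ewing sarcoma line driven by EWS-FLI1, a fusion of EWSR1 and FLI1 that acts as an aberrant transcription factor. Every array came from the single clone Asp14, which carries a vector for a doxycycline-inducible hairpin against EWS-FLI1 and a vector for the Tet repressor, and was grown in Zeocin and Blasticidin to keep both vectors. Both groups had 1 ug/ml doxycycline and differed in its duration, so that hours of knockdown and hours in culture cannot be told apart. The series also has 4 arrays without doxycycline (0 h) and 2 each at 53 h, 72 h and 96 h. The series is titled as a study of how EWS-FLI1 and E2F factors act together.

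E2F factors bind promoters of genes for DNA synthesis and are held in check by the RB family of pocket proteins. A second, later set of promoters, those of mitotic genes, carries an element called the CHR, through which the DREAM and MMB complexes repress the genes in quiescence and activate them before mitosis. In Ewing sarcoma, EWS-FLI1 is known both to activate genes that mark the tumour and to hold down genes of mesenchymal cells, among them genes of the extracellular matrix, and knockdown of the fusion is known to slow proliferation.

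The hairpin's target was read first. FLI1, of which A673 cells express the 3' part through the fusion, had log2 values of 6.34, 6.48 and 6.41 at 36 h, against 6.52, 7.17 and 6.94 at 18 h. All 3 arrays at 36 h lay below all 3 at 18 h, but the change of -0.47 ± 0.18 (SE) did not pass the test (limma adjusted p = 0.0762). Without replicate 1 at 18 h, the lowest of its group, the change was -0.65 with adjusted p = 0.0084. It did not pass in any other omission of 1 array (limma adjusted p from 0.136 to 0.211). The 0 h arrays held 9.99 to 10.17, so both groups had low FLI1. Whether the probe sets of EWSR1 see the intact gene, the fusion or both was not tested. EWSR1 had 8.86, 8.64 and 8.80 at 36 h, against 9.05, 9.21 and 9.16 at 18 h and was lower at 36 h (log2 change -0.37 ± 0.10, limma adjusted p = 0.0223). It did not pass with replicates 2 and 3 averaged (adjusted p = 0.206).

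Values are log2 expression after GCRMA, a method that uses the base content of each probe to correct its background and then normalizes the arrays to one another. A gene was tested where its probe set reached log2 4, taken as the floor of reliable signal, on at least 2 of the 6 arrays, and a gene was called where limma's p-value after Benjamini-Hochberg adjustment was under 0.05. Replicates 2 and 3 were much alike: across genes the SD of their difference was 0.181 at 36 h and 0.160 at 18 h, against 0.499 to 0.523 between replicate 1 and either of them. The labels do not call the replicates separate cultures. The p-values therefore reflect only how these 6 arrays vary, which may be technical, and 6 arrays limit the precision. RNA quality was read from ACTB, as its 3' signal minus its 5' signal. This was 2.21, 2.45 and 2.09 at 36 h, against 1.96, 2.00 and 1.88 at 18 h, without overlap. That of GAPDH was 0.190, 0.171 and 0.175 at 36 h, against 0.179, 0.160 and 0.135 at 18 h, with overlap. Because the ACTB measure separated the groups, its part in the changes cannot be told apart from that of time.

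Of 6990 genes tested, 2903 were called, or 41.5%. They were 1375 genes higher at 36 h (19.7%) and 1528 genes lower at 36 h (21.9%), and in 2899 of the 2903 the arrays of the 2 times did not overlap. Over all tested genes 56.8% had no overlap, and the genes named below were in part chosen for a small p, so their lack of overlap is a description. The size of 1 on the log2 scale was reached by 412 higher and 416 lower genes, and the median change over all genes was 0.01. With replicates 2 and 3 averaged within each time, 461 genes were called (6.6%), 151 higher and 310 lower, all of them also among the 2903. With the ACTB measure as a covariate the standard errors grew by a median factor of 1.88 and limma called 20 genes, although 100% of the 2903 kept their direction. In bulk RNA, fewer cells of a kind and less RNA per cell cannot be told apart.

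The 15 genes that were lowest at 36 h relative to 18 h were mostly replication genes, 9 of them members of the cell cycle lists. MCM10, which acts when the replicative helicase starts at origins, had 5.83, 4.75 and 5.98 at 36 h, against 8.78, 9.61 and 9.57 at 18 h (log2 change -3.80 ± 0.38, limma adjusted p = 0.00111). BLM, a helicase that resolves recombination intermediates, had 4.15, 3.79 and 4.55 at 36 h, against 7.33, 7.73 and 7.76 at 18 h (log2 change -3.44 ± 0.23, limma adjusted p = 0.000494). The helicase subunits GINS4 (-3.31) and GINS2 (-2.72), the origin recognition subunit ORC1 (-2.78), the polymerase epsilon subunit POLE2 (-3.04) and MCM2 (-2.66) were lower as well. CDC45, the helicase activator, was below the floor on all 3 arrays at 36 h and at least 9.03-fold lower, as were DSCC1, of the alternative clamp loader (at least 6.92-fold), and POLQ, polymerase theta (at least 4.45-fold). Such a bound sets the brighter mean against log2 4. The list also held TRIP13, an ATPase of the spindle checkpoint (-2.68), ERCC6L, a helicase of anaphase bridges (-2.65), FIRRM, which acts in crosslink repair (-2.76), and 2 known targets of the fusion: CALCB, a calcitonin-related peptide (-3.40), and PPP1R1A, an inhibitor of protein phosphatase 1 (-3.22).

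The 15 genes that were highest at 36 h were mostly genes of secreted and matrix proteins, 6 of them members of the matrix list. MGP, matrix Gla protein, an inhibitor of calcification, had 9.61, 8.11 and 8.65 at 36 h, against 2.25, 2.53 and 2.76 at 18 h. It was at the floor at 18 h and at least 27.7-fold higher at 36 h (limma adjusted p = 0.000494). COL6A3, a chain of collagen VI, had 10.51, 10.79 and 10.49 at 36 h, against 6.75, 5.64 and 5.55 at 18 h (log2 change 4.62 ± 0.32, limma adjusted p = 0.000494). IGFBP7, a secreted binding protein of insulin-like growth factors (4.06), SPOCK1, the proteoglycan testican (4.02), DCN, decorin (3.55), and DKK1, a secreted Wnt inhibitor (4.36), were higher. PAMR1, a secreted peptidase-like protein, was at least 8.27-fold higher and LAMA4, a laminin chain, at least 5.9-fold. The chemokine CXCL14 (4.18), the autophagy protein WIPI1 (4.42), the retinoic acid enzyme ALDH1A3 (3.69), the immediate early factor EGR3 (3.55), the prostaglandin-degrading HPGD (at least 5.36-fold) and the neuronal MAP2 (at least 4.08-fold) completed the 15 with VCAN.

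VCAN, versican, had replicate 1 far above the others at both times, with 10.36, 5.82 and 6.20 at 36 h, against 4.66, 2.48 and 2.47 at 18 h (log2 change 4.26 ± 1.29, limma adjusted p = 0.0397). It did not pass when its 5 probe sets were averaged (2.82, adjusted p = 0.129), nor did HPGD (2.56, adjusted p = 0.0522), and averaging probe sets took LAMA4 to 0.85 and DSCC1 to -1.53, both still called. Other changes rest in part on values under the floor. At 36 h, CALCB, ORC1 and PPP1R1A reached it on 1 of 3 arrays and BLM on 2. At 18 h, WIPI1, SPOCK1, ALDH1A3, DCN and VCAN reached it on 1 of 3 arrays and DKK1 on 2. With values under log2 4 set to log2 4, a setting chosen after seeing the data, the changes of CALCB, ORC1, PPP1R1A and BLM were -3.05, -2.47, -3.13 and -3.37. Those of WIPI1, SPOCK1, ALDH1A3, DCN and DKK1 were 3.86, 3.63, 2.41, 3.44 and 3.92, all 9 still called by limma. VCAN (limma adjusted p = 0.0674) and HPGD (limma adjusted p = 0.0728) did not pass there. Of the 30 genes, 22 stayed called with replicates 2 and 3 averaged and 30 with the replicate number as a block. Those that lost the call with averaging included CXCL14, HPGD, DCN, EGR3 and ALDH1A3 of the 15 highest (limma adjusted p from 0.0636 to 0.113). ORC1 of the 15 lowest lost it too (limma adjusted p = 0.0615). ALDH1A3, EGR3 and HPGD stayed called in only 4 of 6 omissions of 1 array.

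**Figure D1:**
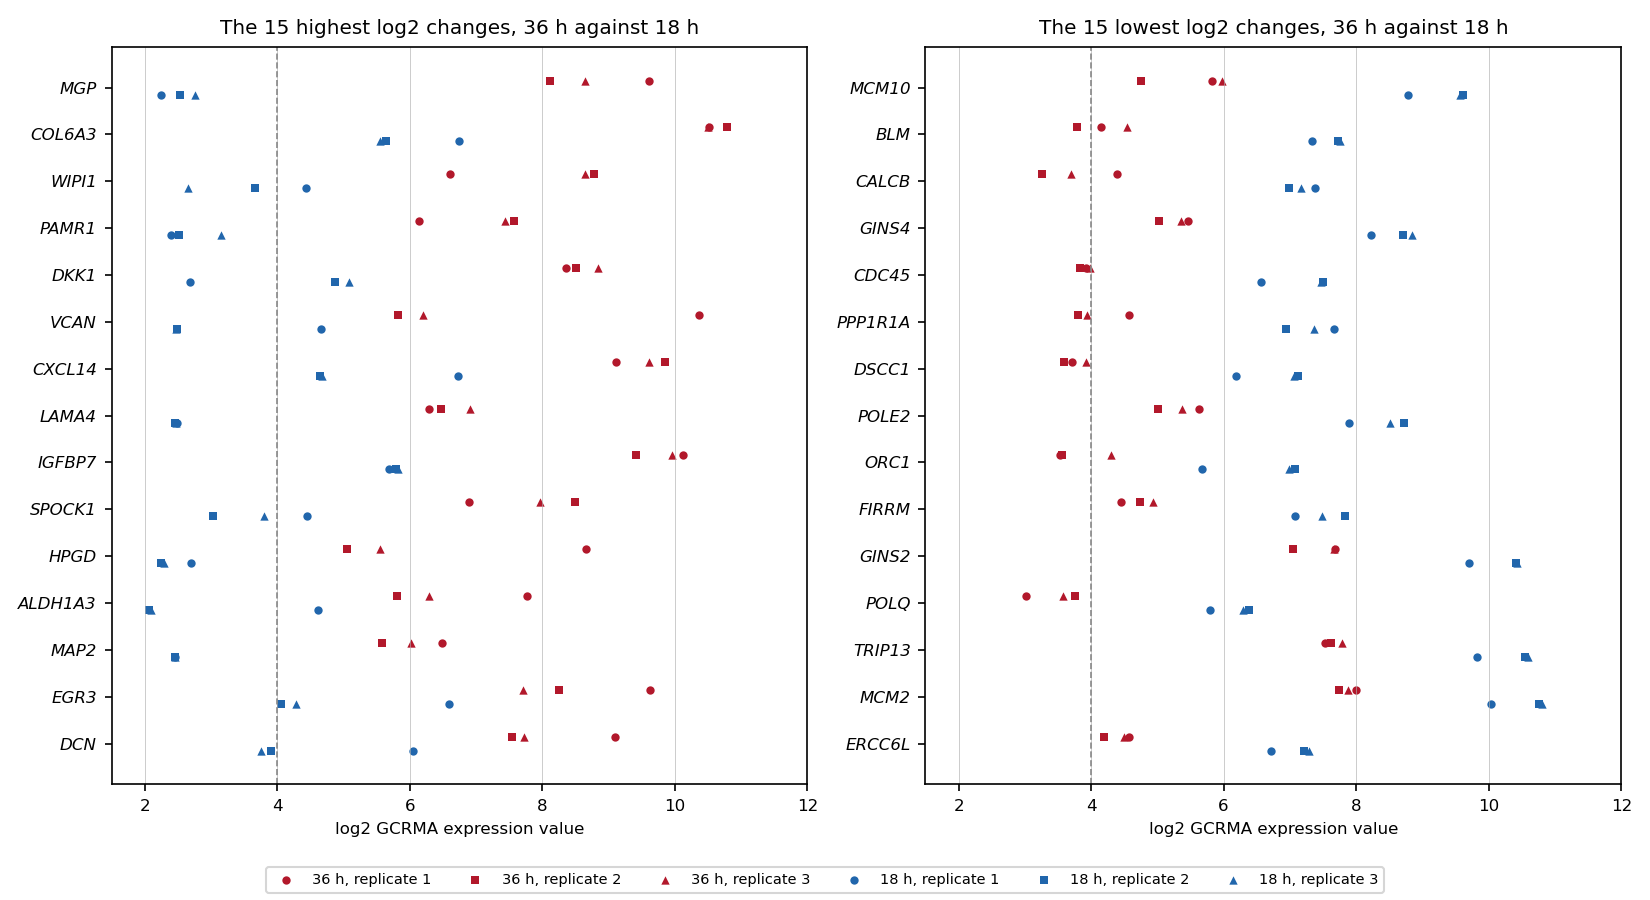
Log2 GCRMA expression value (horizontal axis) of the 15 genes with the highest and the 15 with the lowest log2 change among called genes without overlap, in each array of 36 h (red) and 18 h (blue), with a dashed line at the floor of log2 4. MCM10 lies at 4.75 to 5.98 at 36 h and 8.78 to 9.61 at 18 h, and VCAN has 1 array at 10.36 and 2 at 5.82 and 6.20 at 36 h.

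In the E2F, RB and DREAM family, 7 of 15 tested members were lower at 36 h and 0 were higher. This was 46.7% in all, against 41.5% of all genes, and 3 were called lower with replicates 2 and 3 averaged. E2F8, an atypical repressor E2F that is itself an E2F target, had 4.40, 4.39 and 4.44 at 36 h, against 6.56, 7.43 and 6.85 at 18 h (log2 change -2.53 ± 0.23, limma adjusted p = 0.000809). FOXM1, the activator of mitotic genes, had 7.22, 7.53 and 7.79 at 36 h, against 9.17, 9.34 and 9.37 at 18 h (log2 change -1.78 ± 0.16, limma adjusted p = 0.000809). MYBL2, its partner in the MMB complex, had 6.64, 6.81 and 7.26 at 36 h, against 8.85, 9.62 and 9.71 at 18 h (log2 change -2.49 ± 0.27, limma adjusted p = 0.00139). The pocket protein RBL1 had 5.00, 4.25 and 4.42 at 36 h, against 6.09, 6.58 and 6.59 at 18 h (log2 change -1.86 ± 0.24, limma adjusted p = 0.00244). For each of these 4 genes, every 36 h array lay below every 18 h array. E2F1, chosen after its values were seen, had 5.05, 4.82 and 5.03 at 36 h, against 5.88, 6.24 and 6.50 at 18 h (log2 change -1.24 ± 0.18, limma adjusted p = 0.00357). The pocket protein RBL2, also chosen so, had 9.56, 9.41 and 9.35 at 36 h, against 9.30, 9.17 and 8.99 at 18 h, a change of 0.29 ± 0.11 that did not pass (limma adjusted p = 0.0777).

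Of 29 tested genes of origin licensing and the replicative helicase, 26 were lower at 36 h and 0 higher, with a median log2 change of -1.93 against 0.01 over all genes tested. GINS4 had 5.47, 5.02 and 5.35 at 36 h, against 8.23, 8.71 and 8.84 at 18 h (log2 change -3.31 ± 0.20, limma adjusted p = 0.000494). MCM5, a subunit of the MCM ring, had 7.40, 6.99 and 7.49 at 36 h, against 9.39, 9.88 and 9.81 at 18 h (log2 change -2.41 ± 0.19, limma adjusted p = 0.000617). TIMELESS, which protects the replication fork, had 7.88, 8.09 and 8.31 at 36 h, against 9.82, 9.79 and 9.87 at 18 h (log2 change -1.73 ± 0.12, limma adjusted p = 0.000494). GINS1 had 8.24, 8.06 and 8.37 at 36 h, against 10.17, 10.80 and 10.67 at 18 h (log2 change -2.32 ± 0.18, limma adjusted p = 0.000617). In each of the 4 the groups lay apart. With replicates 2 and 3 averaged, 18 of the 26 were still called, and the median with the ACTB covariate was -1.67.

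MCM7, another subunit of the ring, had 8.55, 8.38 and 8.75 at 36 h, against 10.30, 10.72 and 10.79 at 18 h (log2 change -2.04 ± 0.16, limma adjusted p = 0.000632). Its promoter is shown because it holds the E2F motif: 250 bases before the first listed start of transcription, chr7:100101398-100101647 on the minus strand of GRCh38.p14, from RefSeq, with E2F matches in capitals 187 and 9 bases before the start.
MCM7: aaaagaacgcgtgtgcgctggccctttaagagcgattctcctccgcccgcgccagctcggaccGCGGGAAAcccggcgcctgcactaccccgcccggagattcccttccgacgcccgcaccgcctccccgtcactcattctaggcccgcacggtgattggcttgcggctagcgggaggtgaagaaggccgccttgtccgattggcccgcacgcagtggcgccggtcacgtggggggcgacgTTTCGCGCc

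The genes that make DNA and its precursors moved with them: of 40 tested replication polymerase, clamp and nucleotide synthesis genes, 38 were lower at 36 h and 0 higher, with a median of -1.58. POLE, the catalytic subunit of the leading-strand polymerase, had 5.53, 5.17 and 5.53 at 36 h, against 7.37, 7.59 and 7.53 at 18 h (log2 change -2.08 ± 0.14, limma adjusted p = 0.000494). TYMS, thymidylate synthase, had 11.13, 11.03 and 11.39 at 36 h, against 12.85, 13.01 and 12.96 at 18 h (log2 change -1.76 ± 0.10, limma adjusted p = 0.000494). DUT, which clears dUTP, had 12.19, 12.07 and 12.15 at 36 h, against 12.95, 13.09 and 13.08 at 18 h (log2 change -0.91 ± 0.06, limma adjusted p = 0.000494). RNASEH2A, a subunit of ribonuclease H2, had 8.67, 8.33 and 8.68 at 36 h, against 10.25, 10.25 and 10.20 at 18 h (log2 change -1.67 ± 0.11, limma adjusted p = 0.000494). None of these 4, chosen by adjusted p, overlapped between the times, as 56.8% of all genes did not. Averaging replicates 2 and 3 left 28 of the 38.

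Of 23 recombination and checkpoint repair genes, 17 were lower at 36 h and 0 higher (median -1.25), 10 of them with replicates averaged. BRCA1, of homologous recombination, had 5.34, 5.25 and 5.24 at 36 h, against 7.35, 7.52 and 7.41 at 18 h (log2 change -2.15 ± 0.10, limma adjusted p = 0.000433). The Fanconi anaemia protein FANCI changed by -2.21 ± 0.13 and the checkpoint kinase CHEK2 by -1.99 ± 0.14 (limma adjusted p = 0.000494 and 0.000505).

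Mitotic genes were lower at 36 h in nearly the whole list: 34 of 36 kinases, cyclins and checkpoint genes (median -1.50) and 41 of 42 kinesin, kinetochore and condensin genes (median -1.46), with 0 higher in either. PLK4, the kinase of centriole duplication, had 6.52, 6.57 and 6.65 at 36 h, against 9.03, 9.24 and 9.25 at 18 h (log2 change -2.60 ± 0.10, limma adjusted p = 0.000433). MAD2L1, of the spindle checkpoint, had 9.99, 9.85 and 10.09 at 36 h, against 11.39, 11.66 and 11.64 at 18 h (log2 change -1.59 ± 0.10, limma adjusted p = 0.000494). ECT2, which starts cytokinesis, had 8.45, 8.60 and 8.74 at 36 h, against 10.18, 10.28 and 10.15 at 18 h (log2 change -1.61 ± 0.10, limma adjusted p = 0.000494). Their 3 arrays at 36 h lay at least 1 log2 unit below those of 18 h. In the kinesin list, NCAPG2, a condensin II subunit, changed by -1.91 ± 0.09, the central spindle motor KIF23 by -1.64 ± 0.10 and the cohesin subunit SMC1A by -0.95 ± 0.06 (limma adjusted p = 0.000433, 0.000494 and 0.000494). Averaging replicates 2 and 3 left 24 of the 34 and 33 of the 41.

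BUB1B, the checkpoint kinase BubR1, had 9.30, 9.52 and 9.62 at 36 h, against 11.25, 11.22 and 11.16 at 18 h (log2 change -1.73 ± 0.10, limma adjusted p = 0.000494). ZWINT, a kinetochore protein, had 8.95, 8.88 and 9.13 at 36 h, against 10.98, 11.22 and 11.27 at 18 h (log2 change -2.17 ± 0.11, limma adjusted p = 0.000433). Both groups lay apart in each gene. Their promoters are shown because they hold the CHR close to the start: chr15:40160819-40161068 on the plus strand and chr10:56361260-56361509 on the minus strand, 250 bases before the first listed start in GRCh38.p14, from RefSeq, with the CHR in capitals 23 bases before the start in BUB1B and, on the opposite strand, 31 bases before it in ZWINT.
BUB1B: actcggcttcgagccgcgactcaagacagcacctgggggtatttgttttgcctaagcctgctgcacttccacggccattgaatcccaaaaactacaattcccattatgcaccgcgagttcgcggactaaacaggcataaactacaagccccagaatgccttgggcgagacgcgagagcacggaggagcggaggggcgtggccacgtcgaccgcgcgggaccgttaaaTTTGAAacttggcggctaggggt
ZWINT: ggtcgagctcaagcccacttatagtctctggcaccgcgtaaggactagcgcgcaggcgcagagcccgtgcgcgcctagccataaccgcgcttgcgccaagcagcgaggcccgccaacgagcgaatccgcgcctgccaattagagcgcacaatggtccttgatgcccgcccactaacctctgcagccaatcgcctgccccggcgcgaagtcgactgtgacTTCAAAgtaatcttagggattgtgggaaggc

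Motifs were counted on both strands from 250 bases before to 50 bases after the first listed start, in the 5876 of 6990 tested genes that have a promoter in the RefSeq table. E2F motifs (TTTCCCGC, TTTGGCGC, TTTCGCGC or TTTGCCGC) were in 44% of 25 licensing promoters and 30.6% of 36 polymerase promoters, against 5.97% of all tested genes and 3.33% of all 27305 genes of the table. CHR motifs (TTTGAA or TTCGAA) were in 65.4% of 26 mitotic kinase promoters and 70% of 40 kinesin promoters, against 11.6% of tested genes and 16.6% of all genes. Mitotic kinase promoters held the E2F motif in 3.85% and kinesin promoters in 15%, while licensing promoters held the CHR in 8% and polymerase promoters in 13.9%. The CCAAT box was in 73.1% and 62.5% of the mitotic kinase and kinesin promoters and in 38.5% of tested genes. It was also in 56% of licensing, 52.8% of polymerase, 52.6% of recombination, 58.3% of proteasome and 57.6% of stress response promoters. Among all called genes, those lower at 36 h held the E2F motif in 8.71% and those higher in 3.95%, and the CHR in 17.6% and 11.5%. The ETS motif (CCGGAAGT) was in 12.7% of lower and 7.21% of higher genes, against 9.65% of tested genes. AP-1 motifs (TGANTCA) were in 3.33%, 5.45% and 4.31% of these groups, and TEAD motifs (GGAATG) in 10.4%, 9.93% and 10.4%. The searched motifs do not contain one another, and a match is a description of letters, not a site.

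**Figure D2:**
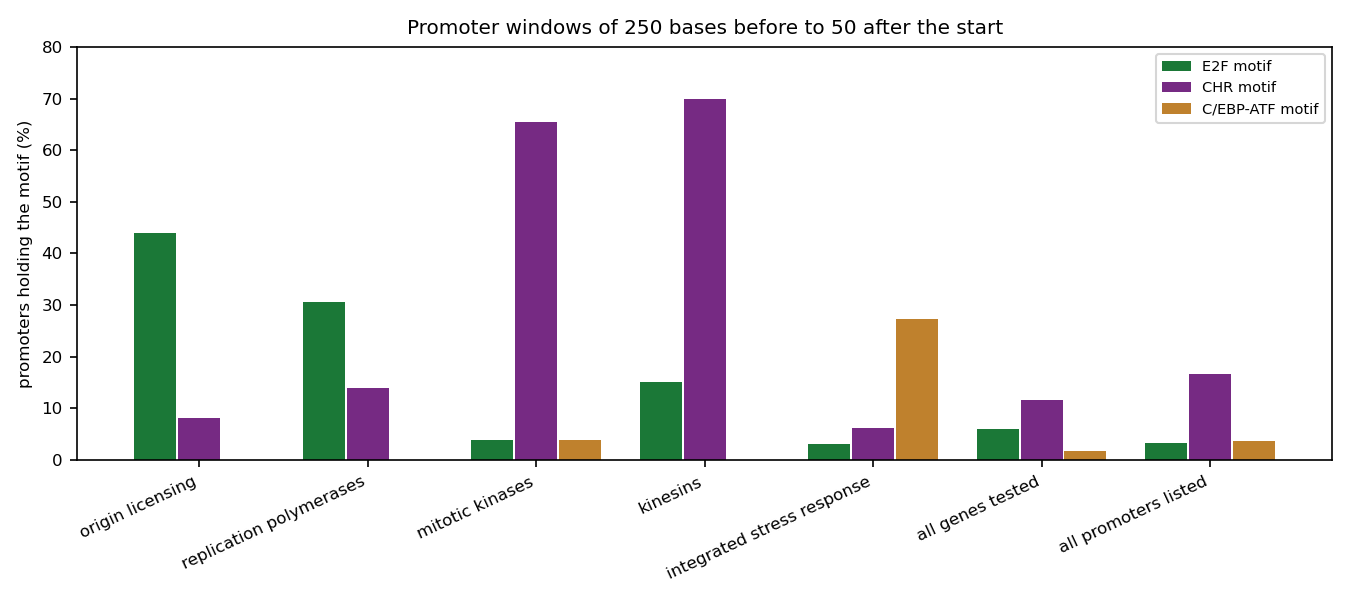
Share of promoters (vertical axis, percent) that hold the E2F, CHR or C/EBP-ATF motif in 5 gene lists, all tested genes and all genes of the promoter table, each bar being 1 share. The E2F bars are highest in the licensing (44%) and polymerase (30.6%) lists, the CHR bars in the mitotic kinase (65.4%) and kinesin (70%) lists, and the C/EBP-ATF bar in the integrated stress response list (27.3%).

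Of 18 G1 cyclins, kinases and inhibitors, 7 were lower and 2 higher, 50% in all against 41.5% of all genes, with a median of -0.21. CDK2, the kinase of S phase entry, had 6.49, 6.49 and 6.61 at 36 h, against 8.17, 8.61 and 8.44 at 18 h (log2 change -1.87 ± 0.13, limma adjusted p = 0.000494). CCND1, cyclin D1, which drives cells through G1, had 10.35, 10.003 and 9.86 at 36 h, against 11.27, 10.83 and 10.94 at 18 h (log2 change -0.94 ± 0.17, limma adjusted p = 0.00658). The Cdk-binding proteins CKS1B and CKS2 changed by -1.59 ± 0.19 and -0.88 ± 0.06 (limma adjusted p = 0.00194 and 0.000494). The inhibitor CDKN1A, named after its values were seen, had 8.02, 8.18 and 8.40 at 36 h, against 8.15, 6.85 and 6.64 at 18 h, with overlap, and did not pass (limma adjusted p = 0.0851). In the list of chromatin silencing and the nuclear lamina, 15 of 22 were lower and 1 higher, among them lamins LMNB1 (-1.69 ± 0.12) and LMNB2 (-1.53 ± 0.14), the H3K9 methyltransferase SUV39H1 (-1.59 ± 0.14) and the histone H2AX (-1.53 ± 0.14), with limma adjusted p of at most 0.000894.

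In all, 163 of 185 tested members of the 6 cell cycle lists (the E2F, RB and DREAM family, licensing, polymerases, recombination, mitotic kinases and kinesins) were lower at 36 h and 0 higher, with a median of -1.51. The remaining 6805 tested genes gave 1375 higher and 1365 lower, so that genes outside these lists were called in both directions about equally often. The arrays were normalized to one another, which can set such a balance, so it is a description.

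**Figure D3:**
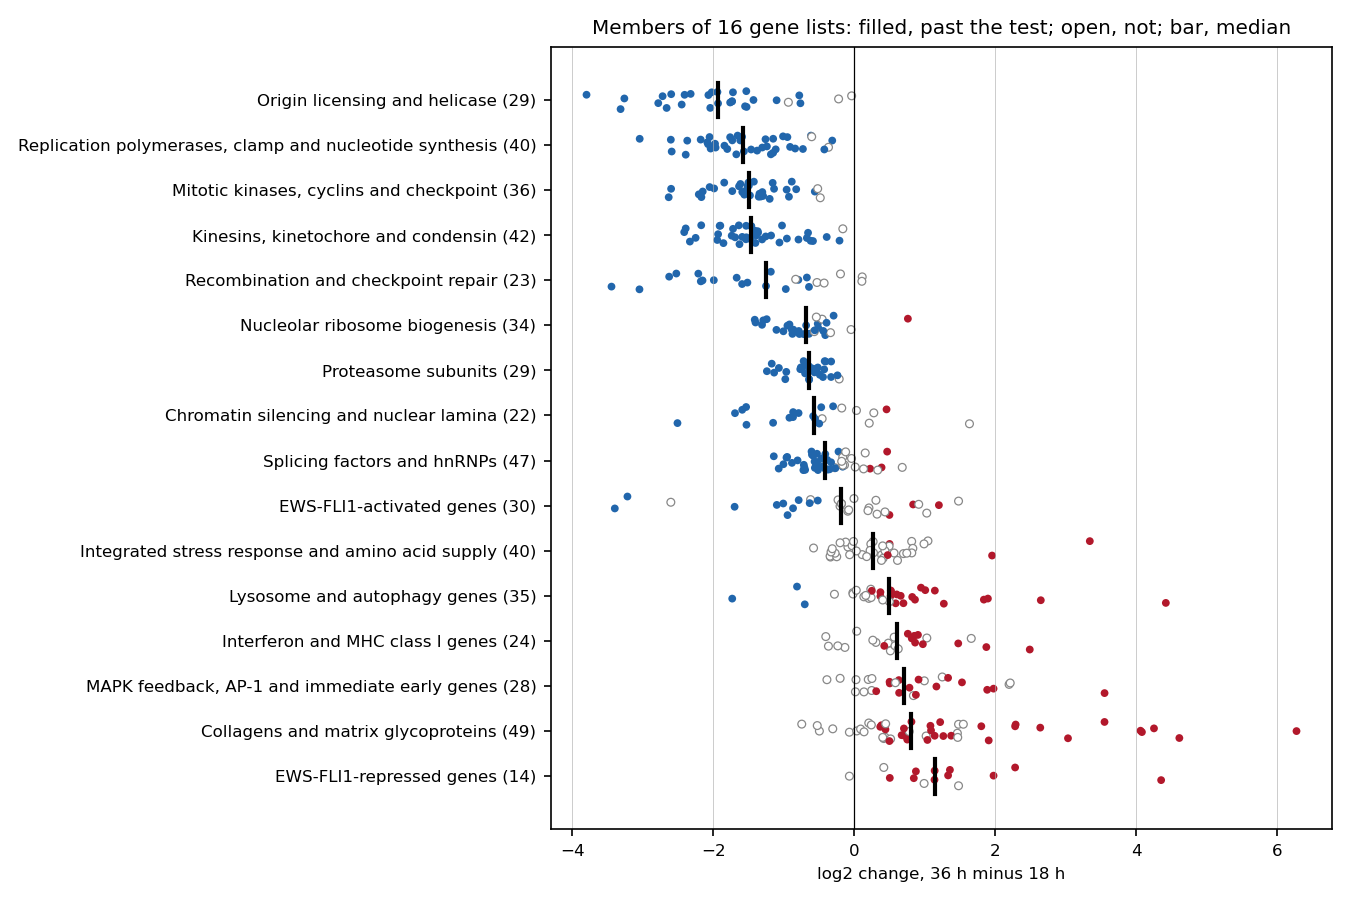
Log2 change of 36 h minus 18 h (horizontal axis) of every tested member of 16 gene lists, with the number tested in parentheses, filled points for called genes (red higher, blue lower), open points for the others and a black bar at the median. The medians run from -1.93 for origin licensing to 1.14 for genes repressed by EWS-FLI1.

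Genes for making and degrading proteins were lower by smaller amounts. Of 34 genes of nucleolar ribosome biogenesis, 28 were lower and 1 higher (median -0.68). UTP20, of the small subunit processome, had 4.70, 4.49 and 4.66 at 36 h, against 5.87, 5.96 and 6.25 at 18 h (log2 change -1.41 ± 0.14, limma adjusted p = 0.00118). TSR1, a maturation factor of the small subunit, had 9.44, 9.48 and 9.61 at 36 h, against 10.32, 10.52 and 10.53 at 18 h (log2 change -0.95 ± 0.09, limma adjusted p = 0.000986). The groups of both genes lay apart. Of 29 proteasome subunits, 28 were lower and 0 higher (median -0.64). PSMD14, the deubiquitinase of the lid, had 11.52, 11.21 and 11.33 at 36 h, against 12.31, 12.58 and 12.57 at 18 h (log2 change -1.13 ± 0.11, limma adjusted p = 0.000986). PSMD1, the scaffold of the base, had 10.61, 10.35 and 10.25 at 36 h, against 11.41, 11.74 and 11.77 at 18 h (log2 change -1.24 ± 0.14, limma adjusted p = 0.00142). With replicates 2 and 3 averaged, 5 ribosome biogenesis genes and 4 proteasome genes were called lower.

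Splicing factors were lower in 32 of 47 and higher in 3 (median -0.41), with SNRPB, of the Sm core, at -1.07 ± 0.08 and the splicing activator SRSF1 at -0.88 ± 0.08 (limma adjusted p = 0.000575 and 0.000809). Of 49 mitochondrial ribosome and import genes, 31 were lower and 0 higher (median -0.42), with the import channel TOMM40 at -1.19 ± 0.13 and MRPL35 at -0.94 ± 0.09 (adjusted p = 0.00142 and 0.000943). Respiratory chain genes were lower in 18 of 38 and higher in 1, 50% in all against 41.5% of all genes, with a median of only -0.15. CYCS, cytochrome c, changed by -1.06 ± 0.12 (limma adjusted p = 0.00142). Among glycolysis and hypoxia genes, 11 of 30 were lower and 5 higher, 53.3% in all. Averaging replicates 2 and 3 left 5 splicing, 3 mitochondrial ribosome and import, 2 respiratory and 2 glycolysis genes called, all lower. LDHA, lactate dehydrogenase A, had 12.40, 11.97 and 12.21 at 36 h, against 13.28, 13.25 and 13.27 at 18 h (log2 change -1.07 ± 0.11, limma adjusted p = 0.00108). PFKP, a phosphofructokinase, had 9.65, 9.83 and 9.63 at 36 h, against 10.79, 10.80 and 10.95 at 18 h (log2 change -1.14 ± 0.09, limma adjusted p = 0.000612).

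Among genes that earlier work placed under EWS-FLI1, those known as repressed were mostly higher. Of 14 tested, 10 were higher at 36 h and 0 lower, 71.4% in all against 41.5% of all genes, with a median of 1.14. With replicates 2 and 3 averaged, 4 were called higher and 0 lower. COL1A2, a chain of collagen I, had 12.12, 12.08 and 12.20 at 36 h, against 9.50, 9.96 and 10.10 at 18 h (log2 change 2.29 ± 0.16, limma adjusted p = 0.000494). SPRY1, a feedback inhibitor of growth factor signalling, had 10.29, 9.53 and 9.83 at 36 h, against 7.64, 8.06 and 8.02 at 18 h (log2 change 1.98 ± 0.22, limma adjusted p = 0.00139). TGFBR2, the type II receptor of TGF-beta, had 10.94, 10.60 and 10.63 at 36 h, against 9.81, 9.47 and 9.46 at 18 h (log2 change 1.14 ± 0.14, limma adjusted p = 0.00189). DKK1 had 8.35, 8.51 and 8.84 at 36 h, against 2.69, 4.87 and 5.09 at 18 h, the lowest value being replicate 1 at 18 h (log2 change 4.36 ± 0.62, limma adjusted p = 0.00328). Of 30 genes known as activated by the fusion, 10 were lower and 3 higher, in all 43.3% against 41.5% of all genes tested, and the median was -0.18. Averaging replicates 2 and 3 left 3 called lower and 0 higher. The activated genes named next had the smallest adjusted p of their list and were all lower. PPP1R1A had 4.57, 3.80 and 3.94 at 36 h, against 7.67, 6.94 and 7.36 at 18 h (limma adjusted p = 0.000701). CALCB had 4.39, 3.26 and 3.70 at 36 h, against 7.38, 6.99 and 7.17 at 18 h (limma adjusted p = 0.000764). Both reached the floor on only 1 of 3 arrays at 36 h. The membrane protein STEAP1 had 9.55, 9.23 and 9.38 at 36 h, against 10.38, 10.41 and 10.38 at 18 h (log2 change -1.01 ± 0.10, limma adjusted p = 0.00102). CAV1, caveolin, changed by -0.52 ± 0.06 (limma adjusted p = 0.00141).

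Of 49 collagens and matrix glycoproteins tested, 28 were higher at 36 h and 0 lower (median 0.81). LAMA4 had 6.29, 6.48 and 6.91 at 36 h, against 2.49, 2.46 and 2.48 at 18 h (limma adjusted p = 0.000433). IGFBP7 had 10.12, 9.42 and 9.96 at 36 h, against 5.69, 5.79 and 5.82 at 18 h (limma adjusted p = 0.000433). The 18 h arrays of each lay close together. COL6A1, a second chain of collagen VI, had 10.90, 10.89 and 10.93 at 36 h, against 9.81, 9.87 and 9.77 at 18 h (log2 change 1.09 ± 0.06, limma adjusted p = 0.000494). LUM, lumican, a proteoglycan of collagen fibrils, was under the floor at 18 h and had 5.49, 5.38 and 5.64 at 36 h, against 3.16, 3.31 and 3.16 at 18 h, which put it at least 2.83-fold higher (limma adjusted p = 0.000494). With replicates 2 and 3 averaged, 11 matrix genes were called.

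Growth factor receptors and their ligands were higher in 10 of 20 and lower in 1 (median 0.50), 55% in all against 41.5% of all genes. With replicates 2 and 3 averaged, 4 were called higher and 0 lower. PDGFRB, a receptor of platelet-derived growth factor, had 9.67, 9.40 and 9.38 at 36 h, against 8.01, 8.02 and 8.17 at 18 h (log2 change 1.42 ± 0.11, limma adjusted p = 0.000617). EGFR had 6.28, 6.14 and 6.17 at 36 h, against 4.81, 4.89 and 4.94 at 18 h (log2 change 1.32 ± 0.11, limma adjusted p = 0.000653). FGFR1 had 10.80, 10.72 and 10.75 at 36 h, against 10.02, 9.90 and 9.77 at 18 h (log2 change 0.86 ± 0.08, limma adjusted p = 0.00103). The VEGF receptor KDR had 7.14, 6.10 and 6.44 at 36 h, against 4.21, 3.88 and 3.84 at 18 h (log2 change 2.58 ± 0.28, or 2.49 with values under the floor set to log2 4, limma adjusted p = 0.00136). Each had its 36 h arrays above those of 18 h. Of 28 genes of MAPK feedback, AP-1 and the immediate early response, 14 were higher and 0 lower (median 0.71). This was 50% against 41.5% of all genes, and 3 were called higher with replicates 2 and 3 averaged. ETV1, an ETS factor of the PEA3 group, had 11.70, 11.74 and 11.72 at 36 h, against 10.68, 10.58 and 10.40 at 18 h (log2 change 1.17 ± 0.08, limma adjusted p = 0.000505). SPRY2, an inhibitor of receptor signalling like SPRY1, had 9.86, 10.07 and 10.18 at 36 h, against 7.87, 8.40 and 8.17 at 18 h (log2 change 1.89 ± 0.16, limma adjusted p = 0.000701). The Ras pathway inhibitor SPRED2 had 10.30, 10.36 and 10.44 at 36 h, against 9.77, 9.70 and 9.71 at 18 h (log2 change 0.64 ± 0.07, limma adjusted p = 0.00145). FOS, named after its values were seen, had 9.41, 4.68 and 5.14 at 36 h, against 7.16, 2.82 and 2.65 at 18 h: replicate 1 was the highest array at either time and the change did not pass (limma adjusted p = 0.327).

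Of 30 mesenchymal, bone and cartilage regulators with a probe set, 20 were below the filter and 10 were tested. Of these 10, 7 were higher and 0 lower (median 0.81), 70% in all against 41.5% of all genes. With replicates 2 and 3 averaged, 2 were called higher. SNAI2, a repressor of epithelial genes, had 11.14, 11.03 and 11.23 at 36 h, against 9.32, 9.90 and 9.83 at 18 h (log2 change 1.45 ± 0.16, limma adjusted p = 0.00148). The chondrogenic factor SOX9 changed by 1.17 ± 0.14, TWIST1 by 0.83 ± 0.15 and MEF2C by 2.27 ± 0.41 (limma adjusted p = 0.00172, 0.00635 and 0.00703). Among TGF-beta, BMP, Wnt and Notch genes, 11 of 31 were higher and 1 lower, 38.7% against 41.5% of all genes (median 0.45), with the co-receptor TGFBR3 at 1.81 ± 0.18, the Wnt factor TCF7L2 at 0.62 ± 0.07 and the BMP-induced ID3 at 0.60 ± 0.08 (adjusted p = 0.00104, 0.00141 and 0.00263). In the actin, adhesion and YAP/TEAD list, 13 of 38 were higher and 4 lower, 44.7% in all, near the 41.5% of all genes. Those called included the integrin ITGAV (1.16 ± 0.08), the cadherins CDH2 (1.55 ± 0.15) and CDH11 (0.74 ± 0.08) and the YAP relative WWTR1 (0.97 ± 0.09), with limma adjusted p of at most 0.0012.

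Neural genes went both ways, with 8 of 26 higher, 7 lower and a median of -0.04, 57.7% in all against 41.5% of all genes. With replicates 2 and 3 averaged, 4 were called higher and 1 lower. The members named here had the smallest adjusted p and were all higher, so they do not stand for the list. MAP2, a neuronal microtubule protein, had 6.48, 5.58 and 6.02 at 36 h, against 2.46, 2.46 and 2.45 at 18 h. The vesicle fusion protein SNAP25 had 7.24, 7.02 and 6.97 at 36 h, against 5.56, 5.58 and 5.55 at 18 h (log2 change 1.51 ± 0.11, limma adjusted p = 0.000535), and the adhesion molecules NCAM1 and L1CAM changed by 2.07 ± 0.24 and 1.37 ± 0.17 (limma adjusted p = 0.00167 and 0.00189).

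Lysosome and autophagy genes were higher in 21 of 35 and lower in 3 (median 0.50). The lysosomal protease CTSF had 6.59, 6.13 and 6.01 at 36 h, against 4.45, 4.14 and 4.45 at 18 h. Its relative CTSO had 6.08, 5.74 and 5.64 at 36 h, against 3.86, 2.85 and 2.81 at 18 h. CTSF changed by 1.90 ± 0.19 (limma adjusted p = 0.00109), CTSO was at least 3.54-fold higher (adjusted p = 0.0017), GAA, acid glucosidase, at least 1.93-fold (adjusted p = 0.00263), and PSAP, prosaposin, changed by 0.66 ± 0.09 (adjusted p = 0.0027). Only 3 of the 21 were called with replicates 2 and 3 averaged. Of 24 interferon and MHC class I genes, 10 were higher and 0 lower (median 0.60). The share called was 41.7%, near the 41.5% of all genes, of which 19.7% were higher and 21.9% lower. With replicates averaged, 0 were called. IFITM3, an antiviral membrane protein, had 9.65, 9.85 and 9.81 at 36 h, against 9.10, 8.61 and 8.66 at 18 h (log2 change 0.98 ± 0.15, limma adjusted p = 0.00405), with IFITM2 at 0.91 ± 0.13 and HLA-E at 0.87 ± 0.18 (adjusted p = 0.00327 and 0.0111).

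Targets of p53 were called in both directions, 4 of 19 higher and 3 lower, 36.8% in all against 41.5% of all genes. XPC, a damage sensor of excision repair, had 9.83, 10.01 and 9.94 at 36 h, against 8.79, 8.63 and 8.63 at 18 h (log2 change 1.24 ± 0.09, limma adjusted p = 0.000526). DDB2, which also senses damage there, had 6.53, 6.29 and 6.32 at 36 h, against 7.82, 7.54 and 7.46 at 18 h (log2 change -1.23 ± 0.14, limma adjusted p = 0.00142). TP53I3 changed by 2.20 ± 0.27 and the sugar phosphatase TIGAR by -1.60 ± 0.22 (limma adjusted p = 0.00205 and 0.0028). In the BCL2 and death receptor list, 5 of 17 were higher and 1 lower, 35.3% in all, likewise near the share of all genes. The lower one was BID, a pro-apoptotic BH3 protein, with 6.19, 5.74 and 6.04 at 36 h, against 7.77, 8.23 and 8.14 at 18 h (log2 change -2.06 ± 0.17, limma adjusted p = 0.000717), and CASP9, the apoptosome caspase, changed by 0.81 ± 0.14 (adjusted p = 0.00644).

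The integrated stress response raises ATF4 and, through it, genes of amino acid synthesis, uptake and tRNA charging. This list split the replicates. Of its 40 tested members, 4 were higher and 0 lower, 10% against 41.5% of all genes, yet the members moved far. Within replicate 1 the median change of 36 h less 18 h was -1.13 with 3 of 40 positive. Within replicates 2 and 3 it was 0.78 and 0.87 with 39 and 38 of 40 positive. ATF4 had 11.81, 13.22 and 13.06 at 36 h, against 12.42, 12.22 and 12.21 at 18 h. ASNS, asparagine synthetase, had 9.61, 12.59 and 12.71 at 36 h, against 11.41, 11.16 and 11.17 at 18 h, and TRIB3, a pseudokinase induced by ATF4, 7.81, 11.58 and 11.71 at 36 h, against 10.07, 9.06 and 8.84 at 18 h. In each, replicate 1 at 36 h was the lowest of the 6 arrays, replicates 2 and 3 at 36 h were the highest, and replicate 1 was the highest of the 18 h arrays. DDIT3, the factor CHOP, had 7.09, 10.27 and 10.53 at 36 h, against 8.87, 8.29 and 8.29 at 18 h. The serine enzyme PSAT1 had 7.79, 10.68 and 10.92 at 36 h, against 10.42, 10.41 and 10.27 at 18 h. The amino acid carrier SLC1A4 had 5.96, 9.55 and 9.56 at 36 h, against 8.37, 8.33 and 8.28 at 18 h. None of the 6 passed (limma adjusted p between 0.392 and 0.982). These 6 genes were chosen after their values were seen. The list had no direction common to the 3 replicates, and the cause was not tested.

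Of the 4 members that passed, 3 had no overlap between the times. SLC38A2, a carrier of neutral amino acids, had 13.05, 13.20 and 13.16 at 36 h, against 12.77, 12.65 and 12.56 at 18 h, without overlap (log2 change 0.48 ± 0.07, limma adjusted p = 0.00367). ATF3, a stress-induced repressor, had 7.92, 8.16 and 8.42 at 36 h, against 7.60, 7.76 and 7.63 at 18 h (log2 change 0.50 ± 0.14, limma adjusted p = 0.0318). The lipoprotein receptor VLDLR had 7.67, 7.60 and 7.61 at 36 h, against 6.87, 5.16 and 4.97 at 18 h (log2 change 1.96 ± 0.49, limma adjusted p = 0.0207). The stress protein NUPR1 had 6.26, 9.73 and 9.63 at 36 h, against 6.40, 4.57 and 4.62 at 18 h, with overlap (log2 change 3.35 ± 1.02, limma adjusted p = 0.0407), and did not pass with the replicate number as a block (adjusted p = 0.0706). With replicates 2 and 3 averaged, 0 of the 40 were called by limma, and their median change was -0.04 in place of 0.27. The promoter of ATF3 is shown because it holds the C/EBP-ATF composite motif (TGATGNAA, where N is any base), which was in 27.3% of 33 promoters of this list, against 1.67% of all tested genes and 3.67% of all genes of the table. It is chr1:212565157-212565406 on the plus strand of GRCh38.p14, from RefSeq, 250 bases before the first listed start, with the match in capitals 191 bases before the start.
ATF3: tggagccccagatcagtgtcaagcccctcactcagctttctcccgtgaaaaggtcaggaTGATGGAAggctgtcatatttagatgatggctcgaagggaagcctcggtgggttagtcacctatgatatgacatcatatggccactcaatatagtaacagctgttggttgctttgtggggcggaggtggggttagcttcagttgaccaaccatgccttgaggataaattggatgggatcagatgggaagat

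Chaperone genes also changed sign between replicates. Of 31 genes of endoplasmic reticulum stress and chaperones, 2 were positive within replicate 1 (median -0.47) and 18 within each of replicates 2 and 3 (medians 0.41 and 0.23). In all 12 were called, 38.7% against 41.5% of all genes, and 5 with replicates 2 and 3 averaged. The 12 called members were all lower and led by cytosolic and mitochondrial chaperones rather than by genes of the reticulum: the chaperonin subunit CCT7 had 11.14, 11.19 and 11.30 at 36 h, against 11.92, 12.11 and 12.14 at 18 h (log2 change -0.85 ± 0.08, limma adjusted p = 0.00102). HSP90AA1, of the cytosol, had 13.81, 13.56 and 13.57 at 36 h, against 14.29, 14.36 and 14.35 at 18 h (log2 change -0.68 ± 0.07, limma adjusted p = 0.00139). HSPE1, of mitochondria, had 11.27, 10.87 and 11.02 at 36 h, against 12.07, 12.51 and 12.45 at 18 h (log2 change -1.29 ± 0.15, limma adjusted p = 0.00166). Cholesterol synthesis genes were lower in 8 of 24 and higher in 0, 33.3% against 41.5% of all genes, with medians of -0.995, -0.38 and -0.26 within replicates 1, 2 and 3. FASN, fatty acid synthase, had 7.96, 8.42 and 8.44 at 36 h, against 9.61, 9.46 and 9.42 at 18 h (log2 change -1.23 ± 0.15, limma adjusted p = 0.00195). EBP, a sterol isomerase, had 8.51, 8.90 and 8.93 at 36 h, against 9.76, 10.12 and 10.01 at 18 h (log2 change -1.18 ± 0.15, limma adjusted p = 0.00227). The cholesterol, licensing, kinesin and matrix lists had medians of 1 sign in all 3 replicates, of which 2 and 3 were much alike.

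**Figure D4:**
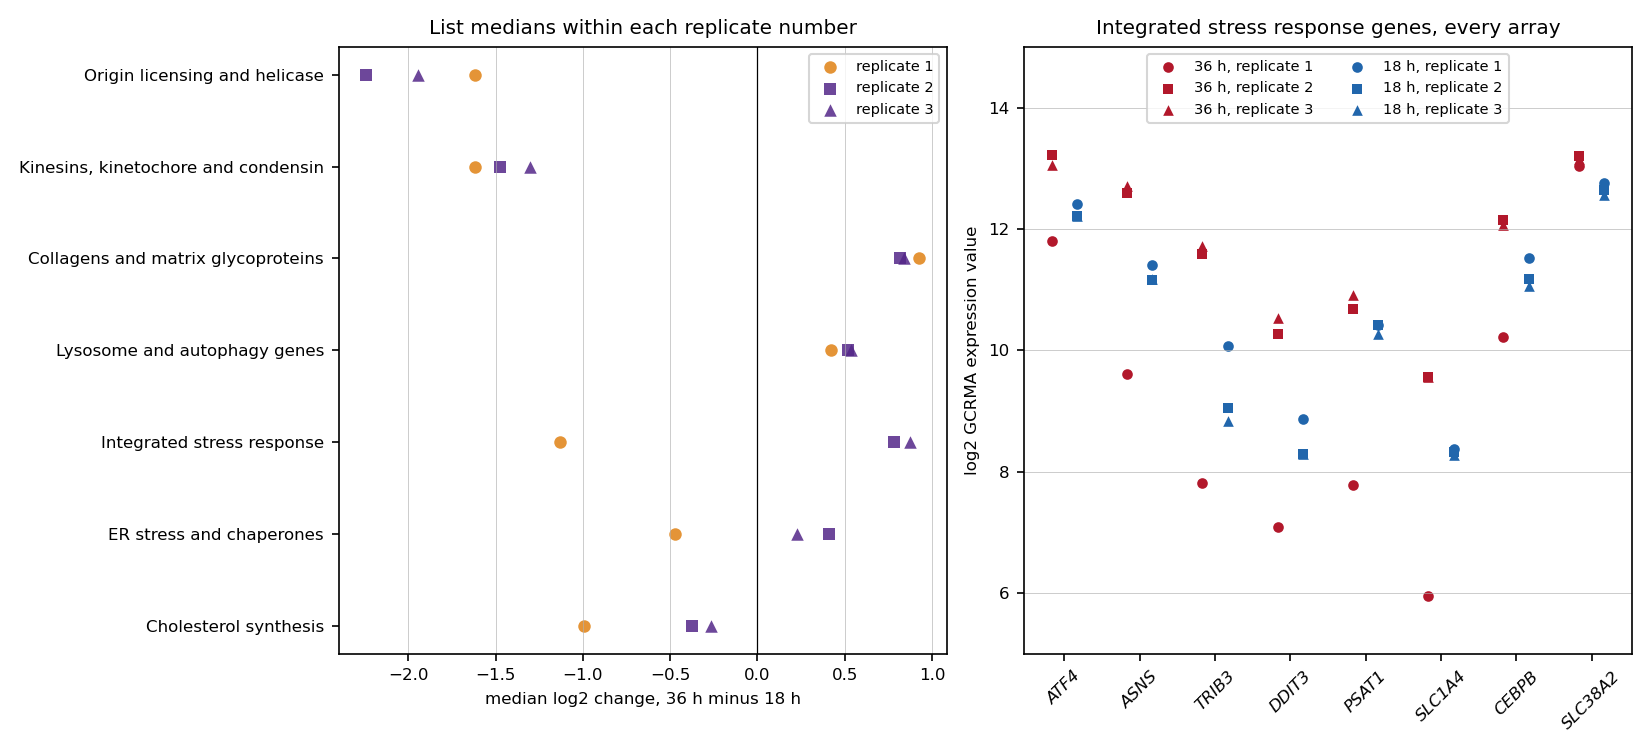
Left, median log2 change of 36 h minus 18 h (horizontal axis) of 7 gene lists within replicates 1, 2 and 3. Right, log2 GCRMA expression value (vertical axis) of 8 integrated stress response genes in each array of 36 h (red) and 18 h (blue). The stress response median is -1.13 within replicate 1 and 0.78 and 0.87 within replicates 2 and 3, and TRIB3 has 7.81, 11.58 and 11.71 at 36 h and 10.07, 9.06 and 8.84 at 18 h.

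The identity of the cells was read from marker genes. Of 7 Ewing sarcoma markers, 4 were lower at 36 h and 0 higher, 57.1% in all against 41.5% of all genes. With replicates 2 and 3 averaged, only 1 was called lower, and NPY1R and BCL11B did not pass (limma adjusted p = 0.103 and 0.116). CD99, the surface marker of the tumour, had 13.84, 13.67 and 13.69 at 36 h, against 13.82, 13.52 and 13.54 at 18 h. NKX2-2, a nuclear marker, had 9.05 to 9.30 at 36 h and 9.13 to 9.29 at 18 h. Neither passed (limma adjusted p = 0.398 and 0.575). PRKCB, a kinase gene activated by the fusion, had 8.63, 8.26 and 8.15 at 36 h, against 9.99, 9.20 and 9.14 at 18 h (log2 change -1.10 ± 0.25, limma adjusted p = 0.0162), with the neuropeptide receptor NPY1R at -0.79 ± 0.19 and BCL11B at -0.63 ± 0.17 (adjusted p = 0.0175 and 0.0248). All 8 measured blood markers, 8 of 9 epithelial markers and 6 of 7 endothelial markers were under log2 4 on all 6 arrays, including PTPRC, EPCAM and PECAM1. Summed log2 levels took in every measured marker of a list, KRT18 and ENG included. They were 17.7 to 18.0 at 36 h and 18.0 to 18.4 at 18 h for blood markers. They were 26.2 to 26.7 at 36 h and 27.1 to 27.3 at 18 h for epithelial markers, and 19.7 to 20.4 at 36 h and 19.8 to 20.6 at 18 h for endothelial markers. The part of such cells in the changes was not tested. The markers above log2 4 were KRT18, a keratin (-0.58 ± 0.23, limma adjusted p = 0.091, or 0.0185 with the replicate number as a block), and ENG, endoglin (0.06 ± 0.32, limma adjusted p = 0.897).

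The later arrays show how long these differences lasted. Of the 15 genes highest at 36 h, 6 were back below the midpoint of their 18 h and 36 h means at 96 h. MAP2 averaged 2.46, 6.03, 5.55, 2.61 and 2.39 at 18, 36, 53, 72 and 96 h. The means of HPGD and CXCL14 were likewise lower at 72 h (2.48 and 5.51) than at 53 h (5.97 and 8.84). ALDH1A3 averaged 4.88 at 72 h, against 6.93 at 53 h. MGP averaged 12.49, 14.10 and 13.31 at 53, 72 and 96 h. Of the 15 lowest genes, 12 lay above the midpoint again at 96 h. MCM10 averaged 9.32, 5.52, 5.69, 5.67 and 8.99 at 18, 36, 53, 72 and 96 h. Not above their midpoint at 96 h were the fusion targets PPP1R1A (3.13 at 96 h) and CALCB (2.38) and the clamp loader gene DSCC1. DSCC1 averaged 5.14 at 96 h, against 6.79 at 18 h and 3.74 at 36 h.

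**Figure D5:**
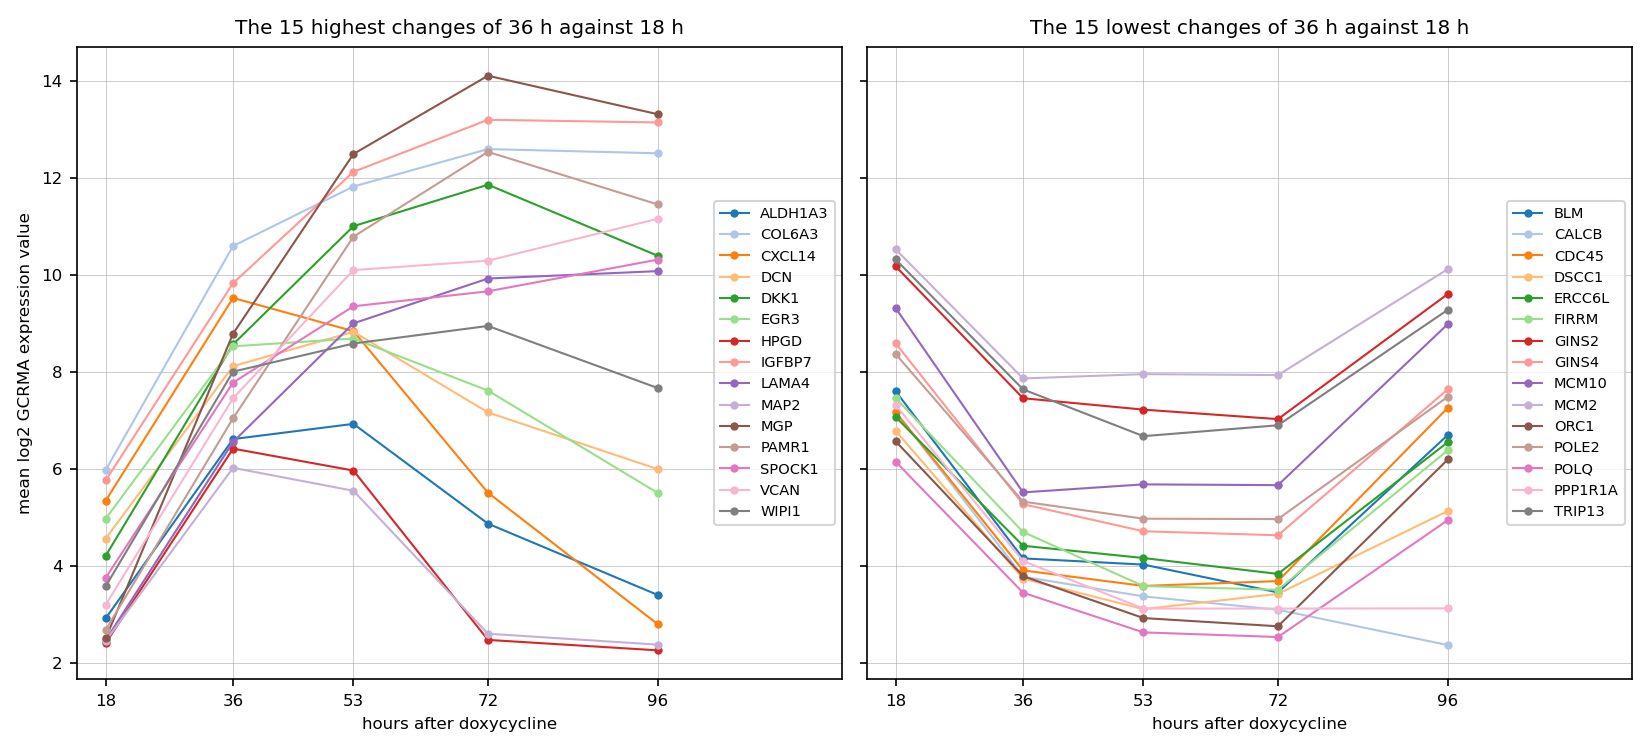
Mean log2 GCRMA expression value (vertical axis) against hours after doxycycline (horizontal axis) of the 15 genes highest and the 15 lowest at 36 h against 18 h, with 3 arrays at 18 h and 36 h and 2 at 53 h, 72 h and 96 h. MGP reaches 14.10 at 72 h, MAP2 is back at 2.61 by 72 h, and MCM10 is back at 8.99 by 96 h.

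Whether the pace differed from that of the next step was tested as the change of 53 h less 36 h minus the change of 36 h less 18 h, over the 12 arrays with doxycycline. Both changes use the 36 h arrays, so an error in those enters both with opposite sign. Of 6990 genes, 760 were called (10.9%), 398 with a positive and 362 with a negative difference, and 0 with replicates 2 and 3 averaged (1184 had unadjusted p under 0.05, and the smallest limma adjusted p was 0.0536). Among the cell cycle lists, licensing genes had a median of -1.93 in the step of 36 h less 18 h and -0.27 in that of 53 h less 36 h, with 19 of 29 differences called positive. Polymerase genes had -1.58 and -0.33, with 23 of 40. Mitotic kinase genes had medians of -1.50 and -1.15 and 5 of 36 called, and kinesin genes -1.46 and -1.004 and 6 of 42. Ribosome biogenesis genes had -0.68 and 0.07, with 10 of 34 called positive and 1 negative, and matrix genes 0.81 and 0.66, with 3 of 49 positive and 6 negative.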

How the data were processed

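RNA of A673 clone Asp14 was measured on 16 Affymetrix arrays, grouped by the hours in the labels. Per the submitters' processing notes, GCRMA was run by the authors, and 1 log2 expression value was deposited for each probe set. The log2 scale was inferred from the range, 0.388 to 15.2. GCRMA's version, its settings and a joint run of all arrays: not given in the sources used here. GCRMA compresses dim values, so changes near the floor are less certain.

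Of 22277 probe sets, 19070 had 1 gene symbol in the platform annotation, 1043 had several and 2164 none (62 were controls). For each of 11963 genes the probe set brightest on average across the 6 arrays was kept, and genes at log2 4 or more on at least 2 of the 6 arrays were tested (6990; 4973 were left out). The main model was limma 3.58.1 in R 4.3.3 on the 6 arrays (lmFit, then eBayes with an intensity trend; residual degrees of freedom, 4), with Benjamini-Hochberg adjustment over all tested genes and a threshold of 0.05. The difference between steps used the 12 doxycycline arrays. Lower bounds were given only where every probe set of the gene was under log2 4 on all arrays of the dimmer group, and they do not cover the spread of the brighter group.

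Named genes were FLI1, EWSR1, the 15 highest and 15 lowest changes among called genes without overlap, the 4 smallest adjusted p in each of 34 gene lists, 5 and 5 genes for the difference between steps, and 1 promoter for each of 4 lists. The members, lists and tests were chosen with earlier results of these data known, so the lists were described by counts and medians without a test. Markers of blood, epithelial and endothelial cells and of Ewing sarcoma were among the lists.

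Replicate numbers stand in the labels without a stated pairing. Same-numbered arrays deviated from their group means together (correlations of 0.372, 0.246 and 0.342). Replicates 2 and 3 were not told apart (0.226 and 0.369 crossed), so the correlations mainly set replicate 1 against the others. The numbers were taken as pairs for the changes within replicates and for the block. The main model had no replicate term. The models were tested on simulated data of 6990 genes: at 36 h against 18 h, the fit found 72% of the genes given a log2 change of 1 and 24% of those given 0.5, with 7 false calls in all. The fit for the difference between steps gave 13 false calls. The simulated arrays were independent and alike in RNA quality, unlike the real ones. These counts therefore do not give the error rate of the real calls. Promoter sequences were RefSeq's. Python 3.11.15 with matplotlib 3.10.9 drew the figures.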

Additional observations from a re-analysis of the deposited data

Results flagged for a closer look

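For 10 genes the change of 53 h less 36 h differed from that of 36 h less 18 h by the test of the difference itself (limma over 12 arrays, adjusted p as given). These are the 5 most positive and 5 most negative of the 760 called, 10.9% of genes tested. With replicates 2 and 3 averaged none of the 10 passed (smallest adjusted p 0.0536), and 1184 genes had unadjusted p under 0.05.

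THBS1, thrombospondin, had 3.18, 5.31 and 4.71 at 18 h, 3.17, 3.82 and 3.99 at 36 h and 8.10 and 8.33 at 53 h, a fitted difference of 5.30 ± 0.81 (SE, adjusted p = 0.00745). All 3 of its 36 h arrays lay under log2 4, so this size is not a measured one, and with values under log2 4 set to log2 4 it was 4.89 ± 0.50 (adjusted p = 0.00197). MCM10 had a difference of 3.96 ± 0.60 (adjusted p = 0.00705), being low at 36 h and 53 h alike. The differences of DMD, dystrophin, at 3.88 ± 1.08 (adjusted p = 0.0468), HBEGF, an EGF receptor ligand, at 3.79 ± 0.95 (adjusted p = 0.0347) and the chemokine CCL2 at 3.36 ± 0.76 (adjusted p = 0.0266) were also positive. HBEGF had 4.98, 7.06 and 6.82 at 18 h, 5.87, 6.39 and 6.64 at 36 h and 10.11 and 10.09 at 53 h.

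Negative fitted differences were those of CXCL14 at -4.86 ± 0.84 (adjusted p = 0.0106), MAP2 at -4.04 ± 0.48 (adjusted p = 0.00453), the adhesion protein FLRT1 at -4.01 ± 0.59 (adjusted p = 0.00668), WIPI1 at -3.85 ± 1.00 (adjusted p = 0.0387) and the sterol transporter ABCG1 at -3.57 ± 0.87 (adjusted p = 0.0329). MAP2 lay under log2 4 on all 3 arrays at 18 h and WIPI1 on 2 of 3, and with such values set to log2 4 the differences were -2.50 ± 0.44 (adjusted p = 0.0107) and -3.28 ± 0.83 (adjusted p = 0.0361). FLRT1 had 5.43, 4.10 and 4.15 at 18 h, 6.46, 6.88 and 6.09 at 36 h and 4.38 and 4.39 at 53 h, so that it was high at 36 h alone of these times. DMD, HBEGF, CCL2, WIPI1 and ABCG1 lost the call in most omissions of 1 of 8 arrays, staying called in 1, 1, 2, 2 and 2 of 8. With the replicate block WIPI1 did not pass (adjusted p = 0.0592).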

How the results depend on the processing

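The count of genes called at 36 h against 18 h was 461 with replicates 2 and 3 averaged, 1019 with replicates 2 and 3 averaged and the replicate block, 4647 with array weights, 20 with the ACTB measure as a covariate, 1693 (of 4192 tested) without probe sets that may cross-hybridize, and 1711 to 3284 with 1 array left out. Averaging with the block, averaging for the difference between steps and setting values under log2 4 to log2 4 were chosen after seeing the data. The replicate block alone gave 3042 and changed no call of the 146 named genes but 2: KRT18 passed with it (adjusted p = 0.0185) and NUPR1 did not (adjusted p = 0.0706). These 146 genes kept their direction under every setting that tested them, except ENG in 3 omissions of 1 array. The floor of log2 6 left 140 of the 146 and the omission of probe sets that may cross-hybridize 78. HBEGF, DMD, THBS1, CCL2, FLRT1 and ABCG1, named only for the difference between steps, are not among the 146. ABCG1 was called higher at 36 h than at 18 h (limma adjusted p = 0.0308) but stayed called in only 1 of 6 omissions of 1 array. The change of HBEGF from 18 h to 36 h ran from -0.64 to 0.40 with 1 array left out. DMD passed with the block (limma adjusted p = 0.0492). Of the 146, 103 stayed on their side of the threshold with replicates averaged, 130 with averaging and the block, 13 with the covariate and 143 with values under log2 4 set to log2 4 (HPGD, IFI35 and VCAN did not pass).

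FLI1 passed with all 16 arrays (-0.47, limma adjusted p = 0.0239), with the 12 doxycycline arrays (-0.47, adjusted p = 0.04995), with array weights (-0.58, adjusted p = 0.0023) and without replicate 1 at 18 h, the leave-one-out range being -0.65 to -0.32. It did not pass with replicates 2 and 3 averaged (-0.39, limma adjusted p = 0.3245) or with the ACTB covariate (-0.56, limma adjusted p = 0.376). The count for the difference between steps was 372 with the 8 arrays of 18 h, 36 h and 53 h, 453 without a filter, 103 to 1610 with 1 array left out and 0 with replicates 2 and 3 averaged.

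Directions turned in list medians near 0. The neural median (-0.04) was 0.0889 with array weights, 0.0154 with the covariate, 0.0018 with a floor of log2 6, 0.43 without cross-hybridizing probe sets and 0.0043 to 0.043 in 4 omissions of 1 array. The stress response median (0.27) was -0.0403 with averaging, with or without the block, and -0.01001 with the covariate. It was -0.032 without replicate 2 at 36 h and at most 0.843 without 1 array. That of chaperone genes (0.10) was -0.064 with averaging, with or without the block, -0.20 with the covariate, and -0.119 and -0.028 without replicates 2 and 3 at 36 h, and at most 0.336 without 1 array. The endothelial list, which is ENG alone (0.06), was -0.056, -0.115 and -0.20 without replicates 2 and 3 at 36 h and replicate 1 at 18 h, and 0.351 without replicate 1 at 36 h. The causes were not tested. Where every array of a group was under log2 4, only a bound was given.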
